A study of Homo sapiens with 6 samples.

Results

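TGM2, the gene of transglutaminase 2, is 1 of the 22354 loci in a table of RNA-seq read counts from the thyroid cell line HTori-3.1 (Htoris-3.1 in the sample labels). It was chosen by these same counts, for a tight fall of 47.2% in its normalised level in the libraries labelled BMAL1 knockout, so its values are given as a description and without a test. HTori-3.1 is an immortalised line of normal human thyroid epithelium. Of 6 libraries, 3 are labelled control, with the genotype given as wild type, and 3 are labelled BMAL1 knockout. BMAL1 encodes a transcription factor of the circadian clock. The knockout cells had been infected with a lentivirus carrying Cas9 and an sgRNA to BMAL1, selected in puromycin and picked as single clones. Whether the 3 libraries stand for 3 clones, or for separate cultures, is not given in the sources used here, so p-values measure only the spread between these samples, which may be technical. All 6 libraries came from cells in etoposide, a topoisomerase poison that breaks DNA, at 2 μM, for 24 h by the treatment protocol and 12 h by the treatment field of the labels. The deposited counts summed to 26893063, 27029060 and 28513703 reads in control replicates 1 to 3, and to 43148059, 29860233 and 43563391 in knockout replicates 1 to 3.

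Transglutaminases are calcium-dependent enzymes that join glutamine to lysine side chains and so weld proteins into crosslinked polymers. TGM2 is the widely expressed member of the family. Inside the cell it also binds GTP and can signal from adrenergic receptors, and at the cell surface it binds fibronectin and integrins and works as an adhesion co-receptor. Retinoic acid, TGF-beta and NF-kB are known inducers of its transcription.

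The targeted gene was examined first. BMAL1 had 304, 326 and 409 reads in control replicates 1 to 3 and 764, 603 and 860 in knockout replicates 1 to 3, or 11.3, 12.2 and 14.6 against 17.9, 19.8 and 19.4 CPM (counts per 1e6 reads, scaled by TMM, edgeR's correction for library composition). Its transcript was higher in the libraries labelled BMAL1 knockout, each of which lay above every control library. The log2 fold change was 0.58 (SE 0.114, adjusted p = 0.0237, edgeR quasi-likelihood test with Benjamini-Hochberg adjustment over the 14860 loci that passed a filter on low counts). With a single library left out, that adjusted p from edgeR ran from 0.0153 to 0.129 and was under 0.05 only without control replicate 3 or knockout replicate 1. By the methods, cells of the picked clones were taken for a western blot check of the knockout, and blots are not part of the files analysed here. NR1D2, a clock repressor gene that BMAL1 activates and which was named after its values were seen, was at 64.9, 61.8 and 77.8 CPM in the control libraries and 42.0, 37.5 and 39.4 CPM in those labelled BMAL1 knockout. It was lower in all 3, with a log2 fold change of -0.78 (SE 0.0992, adjusted p = 0.00277, same edgeR test), and stayed called with any library left out. RNA abundance does not show whether the protein was lost, an exchange of labels was not tested, and every direction below is that of the libraries labelled BMAL1 knockout.

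Markers of the labelled tissue were partly present, and those named here other than the most abundant were chosen for mention after their values were seen. The thyroid transcription factors PAX8, FOXE1 and HHEX passed the filter, PAX8 being the most abundant at a mean of 122 CPM. NKX2-1 had 0 reads in all 6 libraries, and TG, the hormone precursor, TSHR, the thyrotropin receptor, SLC5A5, the iodide importer, and DUOX2, a source of hydrogen peroxide, averaged under 1 CPM. The 5 epithelial markers, KRT8 being the most abundant, summed to 2266, 2313 and 2223 CPM against 1816, 1722 and 1767 CPM. All 3 libraries labelled BMAL1 knockout were lower in this sum, which is nearly all KRT8 and KRT18. Of the 4 epithelial markers tested 2 had a log2 fold change above 0 and 2 below, with a median of -0.03. Those above 0 were far less abundant, KRT19 at a mean of 7.67 CPM and EPCAM at 0.125 CPM in the control libraries. CDH1 averaged under 1 CPM and did not pass the filter.

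TGM2 (ENSG00000198959.12) is read from the reverse strand of chromosome 20 (bases 38127385 to 38166578 of build hg38), and its 6 annotated transcripts together cover 7948 exon bases. It was counted 1641, 1642 and 1677 times in the control libraries and 1416, 973 and 1390 times in the libraries labelled BMAL1 knockout. Normalised, these counts were 61.2, 61.4 and 59.9 CPM in the control libraries and 33.2, 31.9 and 31.4 CPM in those labelled BMAL1 knockout. Each group was tight, and the lowest control library was still 1.81 times the highest library labelled BMAL1 knockout. The means were 60.8 ± 0.817 CPM and 32.1 ± 0.929 CPM (SD, n = 3 each), a ratio of 1.89. The log2 fold change was -0.92 with a standard error of 0.0774. Of the 14860 loci tested, TGM2 had the 115th lowest log2 fold change, and 11.5% of them likewise had all 3 knockout libraries below all 3 control libraries, while 11.8% had them all above. In bulk RNA, fewer cells with the transcript and less transcript per cell cannot be told apart.

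The spread of TGM2 within groups, a trait for which it was chosen, was close to that of counting alone. The coefficient of variation was 1.34% in the control libraries and 2.89% in those labelled BMAL1 knockout. The variance of its counts was 0.303 times what counting reads would give in the first group and 1.15 times in the second. Per kb of exon, TGM2 stood at 7.65 CPM in the control libraries, above 60.3% of the 13578 genes with a known length, and at 4.04 CPM in the libraries labelled BMAL1 knockout, above 43.7% of them. A stretch of 396 exon bases, 4.98% of the total, is shared with RPRD1B on the opposite strand. RPRD1B, a binding partner of RNA polymerase, averaged 77.2 CPM in the control libraries and 74.6 CPM in the libraries labelled BMAL1 knockout. Whether the counting used strand is not stated, so reads from the shared stretch cannot be assigned to either gene.

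**Figure D1:**
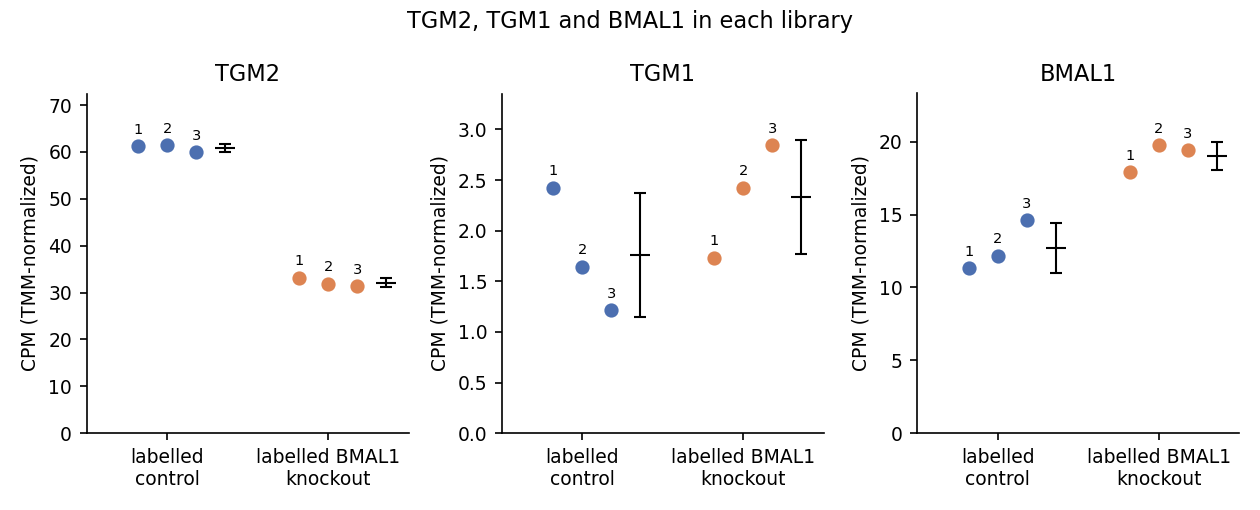
CPM of TGM2, TGM1 and BMAL1 in each library, numbered by replicate, with the mean and SD of each group (n = 3) as a bar beside the points, each vertical axis starting at 0. TGM2 lies between 59.9 and 61.4 CPM in the control libraries and between 31.4 and 33.2 CPM in those labelled BMAL1 knockout, TGM1 overlaps between the groups, and for BMAL1 every library labelled BMAL1 knockout is the higher.

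TGM2 was set beside all 2647 other genes whose average level lay within 0.5 log2 units of its own, from 32.8 to 65.6 CPM. In the libraries labelled BMAL1 knockout, 36 of these were lower (1.36%) and 18 higher (0.68%) at an adjusted p under 0.05 in edgeR's quasi-likelihood test, together 2.04%. Among all loci tested, 202 were lower (1.36%) and 150 higher (1.01%), together 2.37%. Which direction had more calls rested on the scaling, since library size alone gave 155 lower and 175 higher among all loci and 22 of each among genes of similar abundance. The groups did not overlap, with the knockout libraries lower, for 329 of the 2647 genes (12.4%), and with them higher for 255 (9.63%). Their median log2 fold change was -0.01, and the range from the 5th to the 95th percentile was -0.25 to 0.25. TGM2, at -0.92, lay below that range. The counts of called genes rested on single libraries. Knockout replicate 1 differed most from its group, with a variance of 32.6 and 47.5 times that of counting against knockout replicates 2 and 3, which stood at 7.25 from each other. Without control replicate 2 they were 10 lower and 4 higher (65 and 39 among all loci), and without knockout replicate 1 they were 71 lower and 43 higher (360 and 323).

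Only 3 of the 2647 genes had a lower log2 fold change than TGM2, and these and the other genes of similar abundance were named after their values were seen. That count was 1 without control replicate 3, 6 without control replicate 2 and 5 without knockout replicate 3. The lowest, SENP3-EIF4A1, a readthrough locus whose exons are shared with SENP3 and EIF4A1, was at 19.5, 32.4 and 212 CPM in the control libraries and 18.9, 16.6 and 24.4 CPM in those labelled BMAL1 knockout. Its groups overlapped, control replicate 3 alone stood high, and its log2 fold change of -2.14 (SE 1.10) did not pass the test (adjusted p = 0.431, edgeR quasi-likelihood test with Benjamini-Hochberg adjustment). OASL, an interferon-induced antiviral gene, was at 81.9, 86.5 and 75.8 CPM in the control libraries and 37.0, 37.1 and 36.1 CPM in those labelled BMAL1 knockout. It fell, without overlap, by 1.15 on the log2 scale (SE 0.0808, adjusted p = 5.16e-05, same edgeR test). KRT81, a hair keratin with close paralogs among which reads can be split, was at 50.2, 54.2 and 59.1 CPM against 27.2, 27.0 and 31.6 CPM. Its log2 fold change was -0.93 (SE 0.0973, adjusted p = 0.00103, same edgeR test), again without overlap. Just above TGM2 came ST3GAL1, a sialyltransferase, at a log2 fold change of -0.92, NT5E, a surface enzyme that makes adenosine, at -0.89, and PHLDA1, at -0.88. The differences among TGM2, KRT81, ST3GAL1, NT5E and PHLDA1 were smaller than their standard errors. SUSD1, at 25.8 ± 0.623 CPM in the control libraries and 60.1 ± 3.58 CPM in those labelled BMAL1 knockout (SD, n = 3), was the only gene of the 2647 whose log2 fold change (1.22, SE 0.0844) was above 0 and larger in size than that of TGM2. Few genes were as even within groups as TGM2, which was chosen partly for that evenness. The pooled within-group SD of log2 CPM was 0.0324 for TGM2 against a median of 0.110, and 39 of the 2647 genes (1.47%) had a smaller one. Relative to counting, the variance of TGM2 was 0.725 against a median of 9.24.

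**Figure D2:**
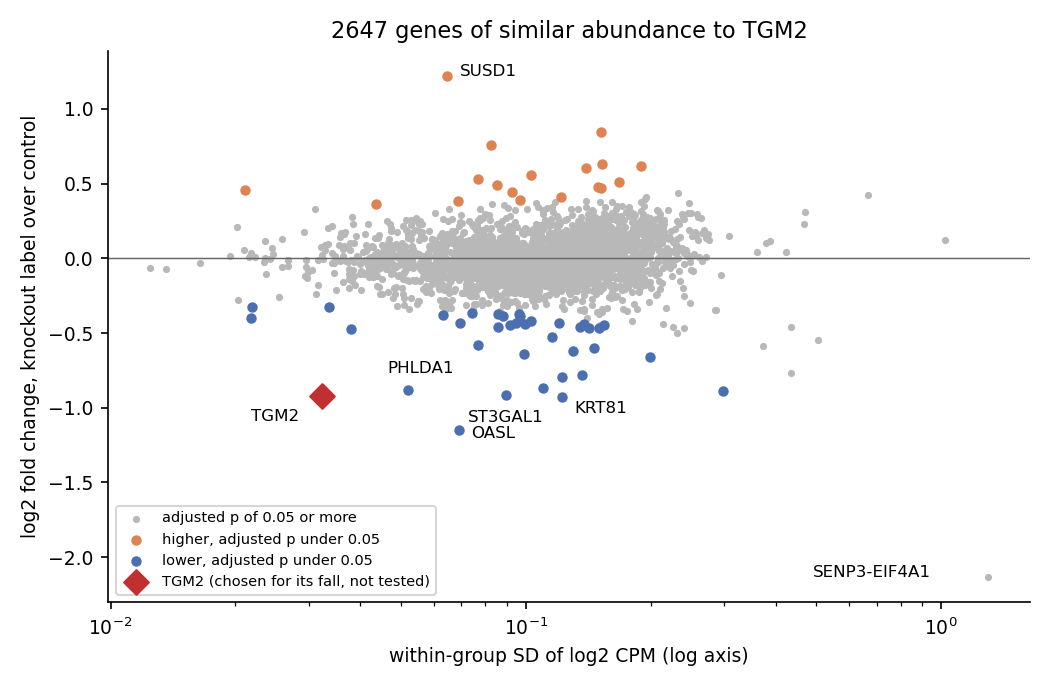
Log2 fold change (libraries labelled BMAL1 knockout over control) against the pooled within-group SD of log2 CPM, on a log axis, for TGM2 (diamond) and the 2647 genes of similar abundance, with those at an adjusted p under 0.05 in edgeR in colour. TGM2 lies at -0.92 with an SD of 0.0324, OASL and KRT81 lie lower, and SENP3-EIF4A1 lies lowest with a far larger SD.

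Of the 9 genes of the transglutaminase family, TGM2 was the main one expressed. TGM1, which crosslinks the envelope of skin cells, was at 2.42, 1.65 and 1.21 CPM in the control libraries and 1.73, 2.42 and 2.84 CPM in those labelled BMAL1 knockout. These groups overlapped, and the log2 fold change of 0.41 (SE 0.272) did not pass edgeR's quasi-likelihood test (adjusted p = 0.485, Benjamini-Hochberg). Per kb of exon, TGM1 stood at 0.471 CPM in the control libraries, against 7.65 CPM for TGM2. TGM4, the prostate transglutaminase, had 6, 0 and 2 reads against 7, 7 and 0, and TGM5, a skin form, had 2, 2 and 4 against 7, 6 and 9. Both fell under the filter. TGM3, TGM6, TGM7, F13A1 (the A chain of coagulation factor XIII) and EPB42 (the catalytically inactive member, of the red cell membrane) had 0 reads in all 6 libraries. TGM1, the only member tested besides TGM2, was called by none of edgeR, DESeq2 and limma-voom (2.37%, 4.69% and 1.72% over all loci). Its unadjusted p in edgeR was not under 0.05, as it was for 16.9% of all loci.

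Known partners and substrates of TGM2 numbered 24, of which 23 were tested and SPP1 had 0 reads. At an adjusted p under 0.05 in edgeR, 1 was lower and 0 higher (1.36% and 1.01% over all loci), and 16 had a log2 fold change below 0 (47.7% over all loci). Their median was -0.07, against 0.01 over all loci. ITGB3, the integrin beta chain with which TGM2 joins at the cell surface, was at 110, 112 and 131 CPM in the control libraries and 72.0, 85.0 and 93.4 CPM in those labelled BMAL1 knockout. It was lower in all 3, by a log2 fold change of -0.50 (SE 0.105, adjusted p = 0.0318, edgeR quasi-likelihood test with Benjamini-Hochberg adjustment). With a library left out, that edgeR adjusted p ran from 0.0233 to 0.119 and was under 0.05 only without knockout replicate 1 or 3. ITGB3 shares exon bases with an unnamed locus.

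FN1, the matrix protein fibronectin to which TGM2 binds, was the most abundant partner at 4127, 4177 and 4501 CPM in the control libraries and 2841, 3277 and 3692 CPM in those labelled BMAL1 knockout. The groups did not overlap, but its log2 fold change of -0.38 (SE 0.0941) missed the threshold (adjusted p = 0.0573, edgeR quasi-likelihood test, Benjamini-Hochberg), and it was called without knockout replicate 1 or 3 (0.0229 at the lowest). FN1 was called in 4 of 16 alternatives, DESeq2 among them. The other integrin chains, MDK and ADRA1B, chosen for mention after their values were seen, were not called by edgeR, while DESeq2 called MDK and ITGA5. ITGB1 had a log2 fold change of -0.05, ITGB5 of -0.26 and ITGA5 of -0.31. The lowest value was -0.56, of ADRA1B, the adrenergic receptor from which TGM2 signals (adjusted p = 0.170, edgeR quasi-likelihood test, Benjamini-Hochberg), and the highest 0.62, of MDK, a growth factor that TGM2 can crosslink (adjusted p = 0.0633, edgeR quasi-likelihood test, Benjamini-Hochberg). In all, 8 of the 23 had an unadjusted p under 0.05 in edgeR (16.9% over all loci), and DESeq2 called 5 (4.69%) where limma-voom called 1 (1.72%).

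Of 22 genes that bring in, make, bind or break down retinoic acid or answer to it, 14 were tested, 1 was higher and 0 lower in edgeR (1.01% and 1.36% over all loci), and the median log2 fold change was 0.09, against 0.01 over all loci. An unadjusted p under 0.05 in edgeR was found for 4 of the 14 (16.9% over all loci), all higher in the libraries labelled BMAL1 knockout, and DESeq2 and limma-voom called 0 (4.69% and 1.72%). CRABP2, which carries retinoic acid to its nuclear receptors, was at 1.60, 1.20 and 1.29 CPM in the control libraries and 2.58, 2.42 and 2.37 CPM in the libraries labelled BMAL1 knockout. It was low in all 6 libraries and higher in all 3 labelled BMAL1 knockout (log2 fold change 0.85, SE 0.199, adjusted p = 0.0487, edgeR quasi-likelihood test with Benjamini-Hochberg adjustment). Leaving out any 1 of the 6 libraries raised that edgeR adjusted p above 0.05, to between 0.0699 and 0.195. The receptors RARA, RARG, RXRA and RXRB, all but RXRA chosen for mention after their values were seen, had log2 fold changes of 0.00, -0.01, -0.06 and 0.01, those of RARA and RARG turning positive when only library size was scaled, and RXRA was the most abundant member at 43.1 CPM in the control libraries. Also named after their values were seen, DHRS3, a retinal reductase, LRAT, which esterifies retinol, and RARRES2, a chemokine, had 0.99, 0.96 and 0.33 and were not called by edgeR (adjusted p = 0.179, 0.247 and 0.276, Benjamini-Hochberg).

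Of 17 TGF-beta ligands and response genes, 16 were tested, 1 was higher and 1 lower in edgeR, where all loci gave 1.01% and 1.36%, and the median log2 fold change was 0.10 (0.01 over all loci). Of the 16, 6 had an unadjusted p under 0.05 in edgeR (16.9% over all loci), and DESeq2 and limma-voom called 2 each (4.69% and 1.72%). ACTA2, smooth muscle actin, was at 1.79, 2.02 and 1.64 CPM in the control libraries and 3.75, 3.57 and 3.20 CPM in those labelled BMAL1 knockout, higher in all 3. Its log2 fold change was 0.95 (SE 0.177, adjusted p = 0.0182, edgeR quasi-likelihood test with Benjamini-Hochberg adjustment), and its exons overlap those of FAS on the opposite strand. FAS, a death receptor named after its values were seen, was far more abundant and itself higher, at 34.3 ± 2.25 CPM in the control libraries and 52.3 ± 6.12 CPM in those labelled BMAL1 knockout (SD, n = 3), so without the strand setting reads from the shared bases cannot be assigned to ACTA2. The log2 fold change of FAS was 0.61 (SE 0.102, adjusted p = 0.0109, same edgeR test, higher in all 3), a call lost without control replicate 2 or 3 (0.0711 at the highest). THBS1, thrombospondin, was at 269, 256 and 264 CPM against 184, 200 and 205 CPM, lower in all 3 libraries labelled BMAL1 knockout. It fell by 0.42 on the log2 scale (SE 0.0732, adjusted p = 0.0128, same edgeR test). For ACTA2 and THBS1 the adjusted p from edgeR was under 0.05 only without knockout replicate 1 or 3 when a library was left out, with highest values of 0.0867 and 0.0695. COL1A1, a collagen chain and the most abundant of the list, had a log2 fold change of 0.00 that changed sign when only library size was scaled.

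All 16 genes of the NF-kB list were tested, 4 were lower and 0 higher in edgeR, beside 1.36% and 1.01% of all loci, and the median log2 fold change was -0.19, beside 0.01. An unadjusted p under 0.05 in edgeR was found for 9, all lower (16.9% over all loci in either direction), and DESeq2 called 4 (4.69% over all loci) where limma-voom called 3 (1.72%). TNFAIP3, the deubiquitinase that brakes NF-kB, was at 48.4, 46.8 and 43.8 CPM in the control libraries and 30.5, 29.5 and 32.9 CPM in those labelled BMAL1 knockout, with no overlap. It fell by 0.58 on the log2 scale (SE 0.0858, adjusted p = 0.00547, edgeR quasi-likelihood test with Benjamini-Hochberg adjustment) and stayed under 0.05 with any library left out. The other called genes were TRAF1, an adaptor of TNF receptors, with a log2 fold change of -0.64, BIRC3, a ubiquitin ligase of the same receptors, with -0.53, and the chemokine CCL5, with -0.43. Their adjusted p values were 0.0112, 0.0163 and 0.0393 in the same edgeR test. With single libraries left out the call of TRAF1 was lost without control replicate 1 or 2, that of BIRC3 held only without knockout replicate 1 or 3 and that of CCL5 only without knockout replicate 1, the highest values being 0.0695, 0.0820 and 0.166. NFKBIA, the inhibitor that holds NF-kB in the cytoplasm, was at 45.9, 41.0 and 41.6 CPM against 31.5, 37.7 and 35.0 CPM. The groups did not overlap, and its log2 fold change of -0.30 (SE 0.0941) did not pass (adjusted p = 0.120, same edgeR test). SOD2, the mitochondrial superoxide dismutase, was the most abundant member, with a log2 fold change of -0.18 that was not called. CDKN1A, the cell cycle inhibitor p21 and outside these lists, was at 113, 109 and 88.9 CPM against 127, 158 and 140 CPM, higher in all 3 libraries labelled BMAL1 knockout but with an adjusted p of 0.0520 in the same edgeR test (log2 fold change 0.45, SE 0.107), which was 0.0156 without knockout replicate 1. Its call turned on the processing, with an adjusted p under 0.05 in 8 of 16 alternatives, DESeq2 among them and limma-voom not.

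**Figure D3:**
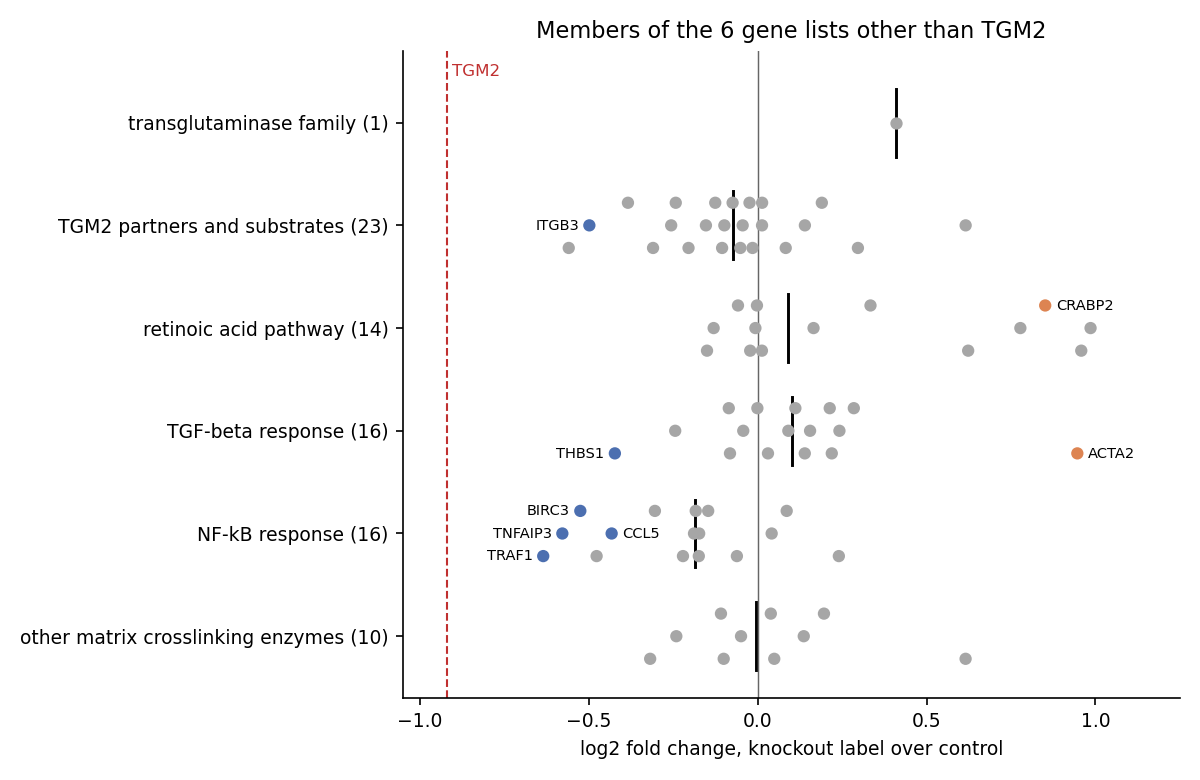
Log2 fold change (libraries labelled BMAL1 knockout over control) of the tested members of each list other than TGM2, with the number tested in brackets, coloured points for those at an adjusted p under 0.05 in edgeR, a bar for each median and a dashed line for TGM2. The dashed line at -0.92 lies left of every point. Outside the cell-type markers, the nearest member is TRAF1 at -0.64.

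Other enzymes that crosslink or process matrix, the lysyl oxidases, lysyl hydroxylases, peroxidasin and procollagen proteinases, numbered 11. Of these, 10 were tested, with 5 log2 fold changes above 0 and 5 below, and a median of -0.01. Neither edgeR nor limma-voom called any (2.37% and 1.72% over all loci), although 3 had an unadjusted p under 0.05 in edgeR (16.9%) and DESeq2 called 2 (4.69%). PLOD2, a lysyl hydroxylase and the most abundant, had a log2 fold change of -0.05. Named after their values were seen, the lowest was LOXL2 at -0.32 and the highest LOXL4 at 0.62, both lysyl oxidases.

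The log2 fold changes of the genes beside TGM2 ran from -0.35 to 0.75. The highest was of MROH8, named after its values were seen, at 1.02 CPM in the control libraries and 1.72 CPM in those labelled BMAL1 knockout (SE 0.265). Neighbours with a mean of at least 10 CPM ran from -0.18 to 0.17. Of the 10 tested genes on each side of TGM2, 0 were called by edgeR, DESeq2 or limma-voom (2.37%, 4.69% and 1.72% over all loci), and 3 of the 20 had an unadjusted p under 0.05 in edgeR (16.9%). The median log2 fold change was -0.05, against -0.02 for the 368 tested genes of chromosome 20. On the side of lower coordinates, the log2 fold changes were -0.09 for CTNNBL1, a splicing factor partner, -0.18 for TTI1, which stabilises kinases of the DNA damage response, and -0.05 for RPRD1B. On the far side they were 0.04 for RALGAPB, a regulator of Ral GTPases, -0.14 for ACTR5, a subunit of a chromatin remodeller, and -0.35 for PPP1R16B, a phosphatase subunit measured under 1 CPM. The standard error of PPP1R16B was 0.377 and those of the other 5 ran from 0.0706 to 0.122.

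**Figure D4:**
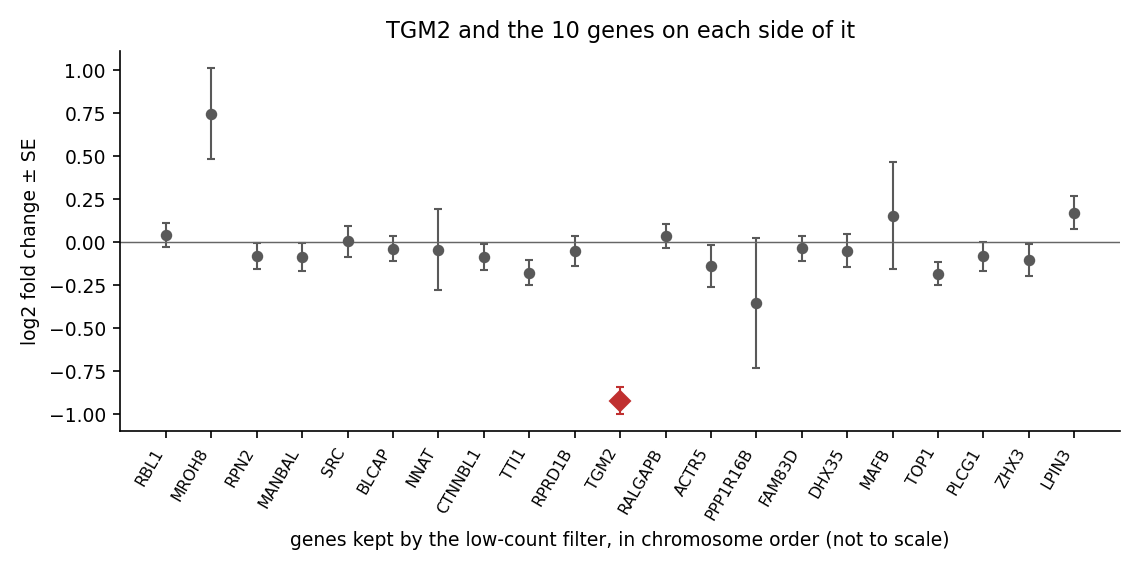
Log2 fold change and its standard error for TGM2 (diamond) and the 10 tested genes on each side, in chromosome order without scale. The neighbours run from -0.35 to 0.75, with PPP1R16B and MROH8, genes of low abundance, at the ends, and TGM2 lies at -0.92.

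The genes most like TGM2 were taken from 9891 with a mean of at least 10 CPM, by Pearson's r of log2 CPM over the 6 libraries, which fall into 2 groups, so r mostly reads the difference between groups and the evenness within them. A total of 385 genes (3.89%) had an r above 0.9. The highest were NEDD4L, a ubiquitin ligase of membrane channels (0.999), OASL (0.997), ZNF185, an actin-binding LIM protein (0.996), ETV5, an ETS transcription factor (0.996), and STMN3, a microtubule destabiliser (0.995). NEDD4L was at 128 ± 1.27 CPM in the control libraries and 97.9 ± 0.499 CPM in those labelled BMAL1 knockout (SD, n = 3), a log2 fold change of -0.38. Those of ZNF185, ETV5 and STMN3 were -0.35, -0.33 and -0.51, all smaller in size than that of TGM2. The most opposite were SUSD1 (-0.998), XRN1, an RNA exonuclease (-0.997), and PDCD4, an inhibitor of translation (-0.996), with log2 fold changes of 1.22, 0.21 and 0.46. PDCD4 shares exon bases with BBIP1 on the opposite strand. Of the 5 most alike, 5 were again the top 5 with median-of-ratios scaling and 2 with library size alone, and of the 3 most opposite 2 and 3 were.

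**Figure D5:**
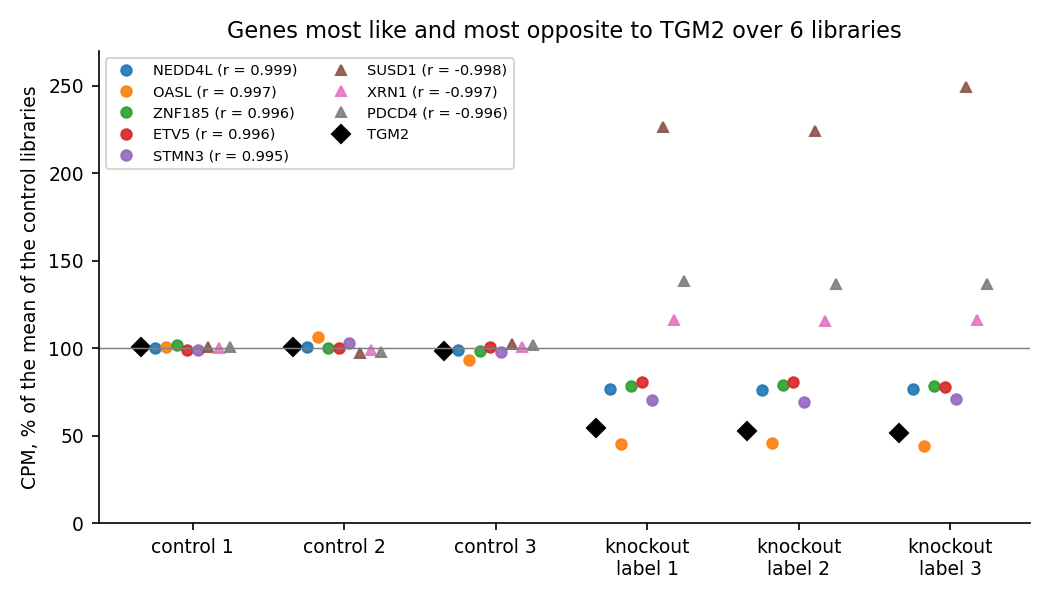
CPM in each library as a percentage of the mean of the control libraries, for TGM2 (diamonds), the 5 genes most like it (circles) and the 3 most opposite (triangles), with Pearson's r over 6 libraries in the key. All 9 genes vary little within groups, and OASL is the only one of the 5 that lies below TGM2 in the libraries labelled BMAL1 knockout.

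Markers of other cell types stayed low apart from genes that the line itself expresses. Fibroblast markers summed to a mean of 879 CPM in the control libraries and 880 CPM in those labelled BMAL1 knockout, nearly all of it COL1A1, while DCN and LUM, named after their values were seen, had 0 reads. Endothelial markers, VWF being the most abundant, summed to 2.76, 2.13 and 2.54 CPM against 1.43, 1.64 and 2.08 CPM. Smooth muscle markers, led by MYH11, summed to 2.27, 0.972 and 1.14 CPM against 2.20, 2.06 and 2.35 CPM, and macrophage markers, led by CD14, to 0.559, 0.636 and 0.643 CPM against 0.867, 1.31 and 1.51 CPM. In the libraries labelled BMAL1 knockout the macrophage sums were higher than in control and the endothelial sums lower, at levels far under that of TGM2. Of these 4 lists 2, 3, 2 and 1 genes were tested, and edgeR, DESeq2 and limma-voom called 0 in each (2.37%, 4.69% and 1.72% over all loci), with 1 unadjusted p under 0.05 in edgeR (16.9%), of ACTG2, which was named after its values were seen. None of the 3 tested thyroid markers was called by the 3 tools, with 2 at an unadjusted p under 0.05 in edgeR (16.9% over all loci), PAX8 and FOXE1, which had log2 fold changes of -0.28 and -0.26. Of 4 tested epithelial markers, KRT18, whose exons overlap those of KRT8, was lower in all 3 libraries labelled BMAL1 knockout (log2 fold change -0.50, SE 0.0751, adjusted p = 0.00588, edgeR quasi-likelihood test with Benjamini-Hochberg adjustment), a call lost without control replicate 2 (0.0561). KRT8 had a log2 fold change of -0.28 and was not called by edgeR's quasi-likelihood test (adjusted p = 0.0517, Benjamini-Hochberg, SE 0.0672, lower in all 3), except without knockout replicate 1 (0.00758). The far less abundant KRT19 and EPCAM, named after their values were seen, had 0.23 and 1.55 and were not called by edgeR. Of these 4 markers, edgeR called 1, DESeq2 2 and limma-voom 1 (2.37%, 4.69% and 1.72% over all loci). An unadjusted p under 0.05 in edgeR was found for 2 (16.9%). Over 16 alternatives KRT8 was called in 3.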

How the data were processed

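The deposited gene counts, made by the authors and used as given, were 1 table of 22354 loci by 6 libraries. The methods of the authors describe quality filtering, placement on hg38 and counting of reads with a single placement; fastp 0.20.1 is named for mapping and HISAT2 2.0.4 for counting, and the annotation and strand setting are not given. Loci were matched by symbol to GENCODE v44 (20018 matched), and 2310 of the 22354 were assembled loci. Counts and ranks over all loci, or over genes of similar abundance, may include assembled loci. In R 4.3.3, edgeR 4.0.16 removed low counts (filterByExpr), scaled by TMM and fitted 3 libraries labelled BMAL1 knockout against 3 control libraries in a quasi-likelihood test with Benjamini-Hochberg adjustment at 0.05. DESeq2 1.42.0 and limma-voom 3.58.1 gave alternative tests, and matplotlib 3.10.9 drew the figures. TGM2, its lists and their members were chosen with earlier results of these data known. The lists were the transglutaminase family, TGM2 partners and substrates, the retinoic acid pathway, TGF-beta response, NF-kB response, other matrix crosslinking enzymes and cell-type markers. Genes were named by a rule: TGM2, family members with at least 1 read, BMAL1, NFKBIA and CDKN1A, from each other list up to 5 members at an adjusted p under 0.05 and the most abundant, the 5 genes most like TGM2 by correlation and the 3 most opposite, and the 3 tested genes on each side of it. Also named were list members without reads, RARRES1 and loci that share exons with named genes. Other genes outside this rule are said in the text to be chosen after their values were seen. Alternatives changed scaling, filter, test, window, depth and libraries, and 2 more, a removal of GC trends and an older edgeR fit, were chosen after the data were seen. No reads were realigned, and transcript forms and protein were not examined.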

Additional observations from a re-analysis of the deposited data

How the results depend on the processing

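The log2 fold change of TGM2 ran from -0.95 to -0.89 over 16 alternatives (-0.95 to -0.90 with a library left out), and its sign did not reverse. Log2 fold changes near 0, such as those of RARA, RARG, COL1A1, ITGB1, RXRA, RXRB, PLOD2 and RPRD1B, changed sign in some alternatives. Counts of calls by edgeR moved more. Among all loci, 150 higher and 202 lower became 310 and 387 with DESeq2, and 453 and 669 with the GC trend of each library removed, an alternative chosen after seeing the data. Among genes of similar abundance, 18 higher and 36 lower became 46 and 80 with DESeq2, 71 and 139 with the GC trend removed, 10 and 15 in a window of 0.25 (1338 genes) and 29 and 67 in a window of 1 (4961 genes), and 22 and 22 with library size only, which gave 175 higher and 155 lower among all loci. The 3 genes with a lower log2 fold change than TGM2 became 5 with counts thinned and 5 with the GC trend removed. Called partners and substrates went from 1 to 5 with DESeq2 and 6 with the GC trend removed, and called crosslinking enzymes from 0 to 2 and 3. The call in the retinoic acid pathway went to 0 with no low-count filter, DESeq2, limma-voom, thinned counts and the older edgeR fit.

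With a single library left out, calls ran from 39 to 323 (all loci, higher), 65 to 360 (all loci, lower), 4 to 43 (similar abundance, higher), 10 to 71 (similar abundance, lower), 0 to 0 (transglutaminase family), 0 to 3 (partners and substrates), 0 to 1 (retinoic acid pathway, the 1 being RARRES1 and not CRABP2), 0 to 4 (TGF-beta response), 1 to 4 (NF-kB response) and 0 to 2 (crosslinking enzymes), and the genes below TGM2 from 1 to 6. Replicate numbers gave no clear pairing of the libraries (correlations of equal numbers -0.279, 0.130 and -0.0295, and not every library correlated best with its own number). With 3 libraries a group these correlations cannot exclude a pairing. With replicate number as a block, all loci gave 97 higher and 119 lower, similar abundance 10 and 18, partners and substrates 2 and the retinoic acid pathway 0.

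With 3 libraries a group of unstated independence, a clone, a culture or a preparation that differs between the groups cannot be told apart from the genotype. The cause of the TGM2 difference was not tested. TGM2 was selected on these values, and no second data set was examined. The BMAL1 transcript was higher in the libraries labelled BMAL1 knockout, which does not show whether the protein was lost. NR1D2, a gene that BMAL1 activates and which was named after its values were seen, was lower (log2 fold change -0.78). Protein, enzyme activity and cells without etoposide are not in the files analysed here.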
